A study of Homo sapiens with 4 samples.

Results

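The respiratory chain and ATP synthase are built in the inner mitochondrial membrane from subunits that are mostly encoded by nuclear genes, and the RNAs of 84 such genes were followed here between the nucleus and the cytoplasm of HEK293T cells. The members were the protein-coding genes of the deposited table whose symbols name a subunit of complex I (NDUFA, NDUFB, NDUFC, NDUFS and NDUFV genes), complex II (SDHA to SDHD), complex III (UQCR genes and CYC1), complex IV (COX5 to COX8 genes) or complex V (ATP5 genes). They made up 84 of 51740 genes, with 38 in complex I, 4 in complex II, 10 in complex III, 14 in complex IV and 18 in complex V. The choice used gene symbols only and no measured value, though it was made with earlier results of these data known. The symbols leave out a few true subunits, such as NDUFAB1 and COX4I1, which are described separately.

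HEK293T cells derive from human embryonic kidney and express the large T antigen of SV40. The cells were wildtype, were crosslinked with formaldehyde and were split into nuclei and cytoplasm, with 2 biological replicates of each fraction and 4 libraries in all. A library started from 400 ng of RNA, was depleted of ribosomal RNA and was made with a stranded kit and paired reads of 100 nt. By their labels the groups differed in the fraction only. All values are shares of a fraction's RNA, and an amount per cell cannot be told apart from the share that other RNAs took. Reads in introns were counted together with reads in exons, so unspliced RNA is part of a gene's value.

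Complexes I to IV pass electrons from NADH and succinate to oxygen, and complexes I, III and IV pump protons while they do so. Complex V, the ATP synthase, lets the protons return through a rotating ring and makes ATP. The mRNAs of the nuclear-encoded subunits are translated by cytoplasmic ribosomes, and the proteins are then imported into mitochondria. A few further subunits of complexes I, III, IV and V are encoded in the mitochondrial genome.

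The fractions were first checked with MALAT1 and NEAT1, long non-coding RNAs known to stay in the nucleus. NEAT1 had 5613 and 4627 normalized counts in the nuclear libraries and 606 and 596 in the cytoplasmic libraries, and its log2 fold change of cytoplasm over nucleus was -3.09 ± 0.13 (SE, adjusted p = 3.22e-116). MALAT1 had a log2 fold change of -3.47 ± 0.13 (SE, adjusted p = 6.02e-148). Both were higher in the nuclear fraction, as the labels have it. Nuclear RNAs cannot show how much cytoplasmic material stayed with the nuclei. Whole-number counts of single libraries could be recovered from the deposited means for 75 of the tested members, over totals of 9979438 to 16353657 recovered counts per library. Normalized counts are counts divided by the size factor of the library. The libraries are called the deeper and the shallower of each fraction, in that order, because their replicate numbers are not known from the table. Intervals and errors cover the spread between these samples only.

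Transcripts of the respiratory chain were nearly all higher in the cytoplasmic fraction. Of the 84 members, 81 were tested, and 77 of them were higher in the cytoplasm in the authors' deposited DESeq2 comparison, where a call required an adjusted p of 0.01 or less. Over all genes tested the same call was made for 25.9%, and for 35.6% of the protein-coding genes. Only 2 members were higher in the nucleus, where the call was made for 26.5% of all genes tested. These were NDUFS4 and NDUFA10, both of complex I. Another 2 tested members, NDUFA4L2 and COX6B2, were not called in either direction. The 3 members without a test were COX7B2, at a mean of 1.15 normalized counts, and COX6A2 and COX7A1, which are listed at 0.

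The median log2 fold change of the tested members was 2.37, or 5.17-fold higher in the cytoplasm, against 0.11 over the protein-coding genes tested. At least 2-fold higher levels were measured for 73 members, at least 4-fold for 57 and at least 8-fold for 15. Over all 23333 genes tested these numbers were 6461, 2762 and 830. Over the 15336 protein-coding genes tested they were 4494, 1758 and 419. Both cytoplasmic libraries lay above both nuclear libraries for 73 of the 75 members with recovered counts, an order found for 39.8% of all tested genes with recovered counts. Both nuclear libraries lay above for 1 member, NDUFS4, an order found for 45.8% of them. COX6B2 was the remaining member, whose fractions overlapped. Replicates stayed close beside these differences. Between the nuclear libraries a called member differed by a median of 1.11-fold and by at most 1.39-fold, in COX8A, and between the cytoplasmic libraries by a median of 1.05-fold and by at most 1.32-fold, in ATP5PD.

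These values rest on size factors that set the middle of all genes near equal. Over the whole table, fraction means of normalized counts summed to more in the cytoplasmic than in the nuclear fraction. These sums include very abundant genes, with means of up to 955872, so few genes can weigh heavily in them. Some of the most abundant genes have no recovered counts. Giving the fractions equal totals, called equal library totals here, lowers every log2 fold change by 0.66. On that scale 72 members were higher in the cytoplasm and 2 in the nucleus, while calls over all genes went from 6046 higher and 6175 lower in the cytoplasm to 3777 higher and 8930 lower. The members NDUFA12, SDHC and NDUFV3 changed sign and lost their cytoplasmic call there, and NDUFA5 and NDUFS1 lost theirs at log2 fold changes of 0.49 (adjusted p = 0.0137) and 0.25 (adjusted p = 0.0541). By limma on the recovered libraries 71 of 75 members were higher in the cytoplasm, a call made for 27.0% of all 22144 genes. When either nuclear library was left out all limma calls were lost, over all genes as in the members. Over the fits that left out 1 library, NDUFB11 ranged from 3.51 to 3.76, NDUFS4 from -1.22 to -1.09 and COX6B2 from -1.35 to 0.43.

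**Figure D1:**
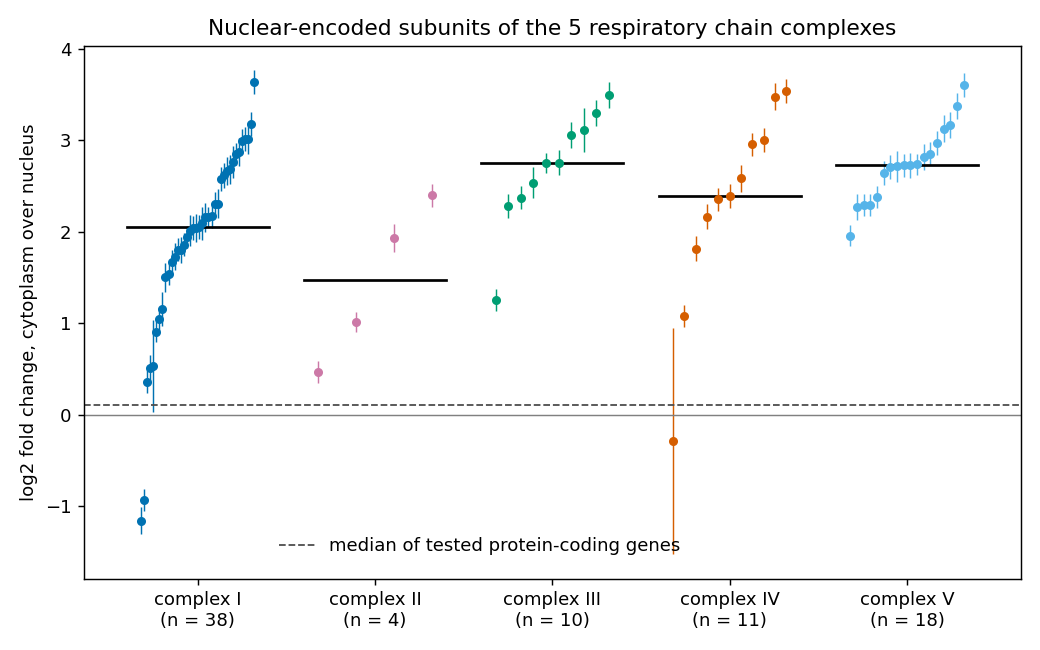
Log2 fold change of cytoplasm over nucleus (vertical axis) for each tested member of the 5 complexes, with bars of 1 standard error, black lines at the median of each complex and a dashed line at the median of the tested protein-coding genes. Complex V members lie between 1.96 and 3.60, while complex I members spread from -1.16 to 3.63; with equal library totals every point lies 0.66 lower.

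The 5 complexes differed in their typical distribution. The median log2 fold change was highest in complex III, at 2.75, and in complex V, at 2.72. It was 2.39 in complex IV, 2.05 in complex I and 1.47 in complex II. These medians correspond to levels 6.74-fold, 6.60-fold, 5.24-fold, 4.13-fold and 2.77-fold higher in the cytoplasm. All complexes kept a positive median with equal library totals, where complex II had the lowest at 0.81. With 4 genes the median of complex II rests on few values, and genes of a complex are not replicates, so the medians are descriptions without a test. With means weighted by inverse variance, complex V at 2.70 lay above complex III at 2.59.

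Members of complex V were the most uniform. Their log2 fold changes had a standard deviation of 0.42 over 18 genes and spanned 1.65, against a standard deviation of 1.04 and a span of 4.79 in complex I. The standard deviation was 0.64 in complex III, 0.87 in complex II and 1.11 in complex IV, where it includes the barely detected COX6B2. The median standard error of a single gene was 0.12 to 0.14 in each complex, so the spread within every complex was larger than the error of its genes.

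Summed counts of single libraries also set complexes III, IV and V apart from complexes I and II. The sums leave out the members without recovered counts, which are ATP5F1A, ATP5F1B and ATP5F1E of complex V, NDUFA10 and NDUFB7 of complex I and SDHA of complex II. Over the recovered members of complex V, normalized counts summed to 8220 and 9122 in the nuclear libraries and to 50176 and 51651 in the cytoplasmic libraries. Over those of complex I they summed to 20867 and 22405 in the nuclear and to 81920 and 84365 in the cytoplasmic libraries. Every pairing of a cytoplasmic with a nuclear library gave a ratio of 5.50 to 6.28 for complex V, 5.21 to 5.98 for complex III, 5.16 to 6.09 for complex IV, 3.66 to 4.04 for complex I and 2.52 to 2.90 for complex II. The ranges of complexes III, IV and V overlapped each other, and each lay above that of complex I, which lay above that of complex II. Summed over all members, fraction means gave ratios of 6.40 for complex V, 5.59 for complex IV, 5.58 for complex III, 3.35 for complex I and 2.34 for complex II, so that the values of complexes I, II and V lay outside the ranges of their recovered members.

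Relative to the recovered members of complex I, the sum over those of complex V was 0.394 and 0.407 in the nuclear and 0.612 and 0.612 in the cytoplasmic libraries. The relative sum of complex III was 0.301 and 0.302 in the nuclear and 0.431 and 0.445 in the cytoplasmic libraries. For complex IV it was 0.294 and 0.316 in the nuclear and 0.446 and 0.443 in the cytoplasmic libraries. Complex II went the other way, with 0.138 and 0.133 in the nuclear and 0.0919 and 0.0989 in the cytoplasmic libraries. The fractions did not overlap in any of these 4 ratios, which do not depend on the scaling of the libraries. From the fraction means of all members, the sum relative to complex I was 0.583 in the nucleus and 1.11 in the cytoplasm for complex V, and 0.240 and 0.168 for complex II. For complex III it was 0.250 and 0.417, and for complex IV 0.253 and 0.423. The direction was the same for each complex as over the recovered members, while the levels of complexes II and V were higher. An exact two-sided permutation test of 2 against 2 libraries cannot go below p = 0.333, the value it gave for each ratio.

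**Figure D2:**
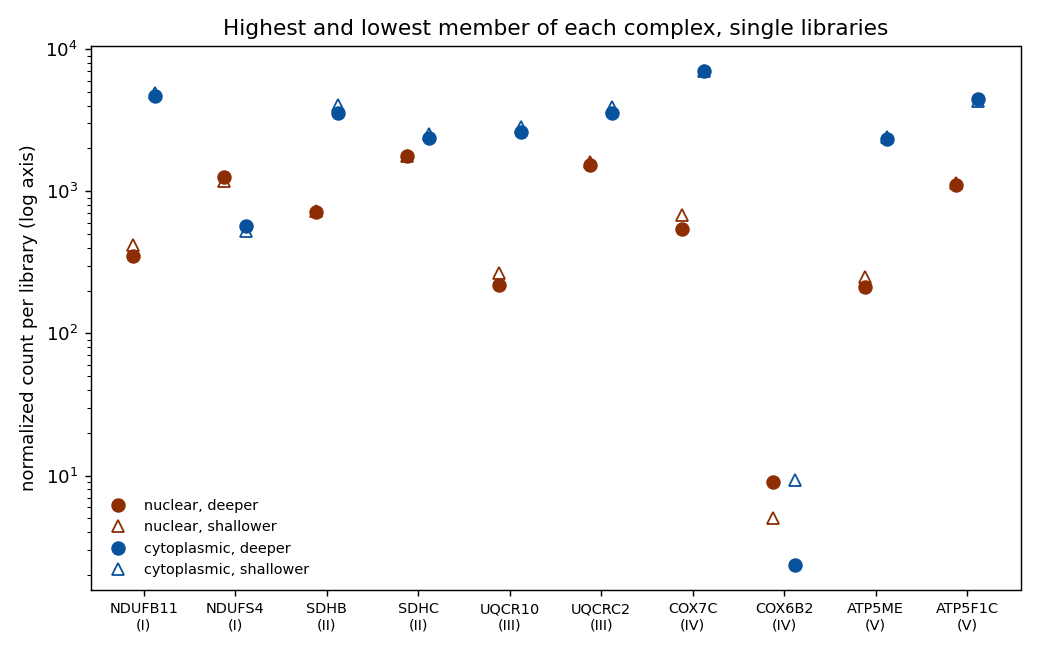
Normalized counts of single libraries (vertical log axis) for the members with the highest and the lowest fold change of each complex among those with recovered counts, with nuclear libraries in brown and cytoplasmic libraries in blue. The fractions are apart for every gene shown but COX6B2, which lies between 2.35 and 9.28, and NDUFS4 has its nuclear libraries on top.

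Short matches to known transcription factor motifs were looked for in the members' promoters, since the genes moved largely together. NRF1, GABP and other ETS factors, and YY1 are known regulators of nuclear genes for mitochondrial proteins. The RefSeq promoter table on GRCh38.p14 gave 80 sequences for 67 of the 84 members, each from 250 bases before to 50 bases after a start site. On either strand, the NRF1 core GCGCATGC was found in 18.8% of the members' promoters, in 4.11% of the 17909 promoters of protein-coding genes and in 3.05% of all 35116 promoters. The ETS core CCGGAAG was found in 26.2%, 14.6% and 10.3%, and the YY1 core AAGATGGCG in 12.5%, 2.89% and 1.75%. The ETS and YY1 cores can overlap, since CCGGAAG ends with the letters AAG that open AAGATGGCG, and the motifs were searched independently. At least 1 of the 3 was found for 33 of the 67 members (49.3%), and for 3240 of 12204 tested protein-coding genes (26.5%).

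For each motif, the sites of the members with the highest and the lowest fold change among its holders are printed, 5′ to 3′ along the gene, with the motif or its reverse complement in capitals. These members were picked by their values, so the sites are examples and cannot show whether a motif goes with the fold change.

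NRF1 core:
ATP5ME, chr4:674337-674364, minus strand: gccgctgacgGCGCATGCgtgcgcccag
NDUFA5, chr7:123557959-123557986, minus strand: tatgcccatcGCGCATGCgtcaattttt
ETS core:
COX8A, chr11:63974592-63974618, plus strand: agctccagaaCTTCCGGccagcgcagc
NDUFS1, chr2:206159585-206159611, minus strand: gctggggccaCTTCCGGcggaactgcg
YY1 core:
NDUFA6, chr22:42090729-42090757, minus strand: atgctttggcAAGATGGCGgggagcggcg
NDUFS4, chr5:53560650-53560678, plus strand: tgcctgcagcAAGATGGCGgcggtgtcaa

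ATP5ME and COX8A, with log2 fold changes of 3.37 and 3.48, carried an NRF1 and an ETS match, and NDUFA5 and NDUFS1 carried the same matches at 1.16 and 0.91. The YY1 match of NDUFS4, the lowest member at -1.16, was centred 25 bases after the start site. That of NDUFA6, at 2.76, was centred 29 bases after it. Tested members with any of the 3 motifs had a median log2 fold change of 2.29, and the 32 without one had 2.38. By motif the direction varied. Medians with and without it were 2.15 and 2.39 for NRF1, 2.67 and 2.29 for ETS and 2.04 and 2.48 for YY1. Over the tested protein-coding genes, the medians with and without any of the 3 were 0.39 and 0.0046. None of these differences was tested. A match is a run of letters and not a binding site. The YY1 core holds the letters ATG, and whether its matches after the start site lie at start codons was not examined.

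Complex I oxidizes NADH and is the largest of the 5. Its nuclear-encoded core subunits, such as NDUFV1, NDUFS1 and NDUFS8, form the arm that holds the flavin and the iron-sulfur centres and have counterparts in bacteria. All 7 core subunits were higher in the cytoplasm, with a median log2 fold change of 2.04, though NDUFS1 lost its call with equal library totals. Of the other 31 members, mostly accessory subunits, 28 were higher in the cytoplasm and the median was 2.09. They include NDUFA4, now often assigned to complex IV, and its relative NDUFA4L2, which was not called. The medians of core and other members thus differed by less than the standard error of a single gene. The range was wider among the other members, from -1.16 to 3.63, than among the core subunits, from 0.91 to 2.62.

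Among the core subunits, NDUFS8 stood highest. It had 551 and 573 normalized counts in the nuclear libraries and 3120.1 and 3769 in the cytoplasmic libraries, and a log2 fold change of 2.62 ± 0.13 (SE, adjusted p = 2.09e-82). NDUFV1, which binds the flavin and NADH, had 1430.3 and 1737 normalized counts in the nuclear libraries and 5589 and 5873 in the cytoplasmic libraries and a log2 fold change of 1.86 ± 0.12 (SE, adjusted p = 5.00e-49). Its partner NDUFV2 had 829 and 829 normalized counts in the nuclear libraries and 1727 and 1688 in the cytoplasmic libraries and a log2 fold change of 1.04 ± 0.13 (SE, adjusted p = 1.28e-15). NDUFS1, the large subunit next to them, was the lowest of the core, with 1884 and 2006 normalized counts in the nuclear libraries and 3495 and 3811 in the cytoplasmic libraries and 0.91 ± 0.12 (SE, adjusted p = 1.98e-14). Cytoplasmic libraries were above nuclear ones in all 4 of these genes. NDUFS3 and NDUFS7 lay close together, at 2.18 ± 0.14 and 2.04 ± 0.13.

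NDUFB11, an accessory subunit of the membrane arm encoded on the X chromosome at chrX:47142071-47145466 (hg38), had the highest fold change of all members. It had 352 and 419 normalized counts in the nuclear libraries and 4638 and 4924 in the cytoplasmic libraries, so that the cytoplasmic level was 12.4-fold higher, with a log2 fold change of 3.63 ± 0.13 (SE, adjusted p = 4.28e-171). NDUFB10, another membrane arm subunit, followed with 424 and 518 normalized counts in the nuclear libraries and 4167 and 4309.6 in the cytoplasmic libraries and a log2 fold change of 3.17 ± 0.13 (SE, adjusted p = 1.74e-126). NDUFA2 and NDUFS5 were likewise more than 8-fold higher in the cytoplasm, at 3.01 ± 0.17 and 3.01 ± 0.13. The gap between the libraries of the fractions was many times the gap between replicates for each of them.

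At the other end, NDUFS4 and NDUFA10 were the members higher in the nucleus. NDUFS4, an accessory subunit next to the NADH-oxidizing module whose loss causes Leigh syndrome, had 1257 and 1182 normalized counts in the nuclear libraries and 571 and 522 in the cytoplasmic libraries. Its nuclear level was 2.23-fold the cytoplasmic level, with a log2 fold change of -1.16 ± 0.14 (SE, adjusted p = 5.87e-15). The gene lies at chr5:53560633-53683338 (hg38, plus strand), where 4 introns make up nearly all of its 123 kb. NDUFA10, an accessory subunit of the membrane arm with a nucleoside kinase fold, had mean normalized counts of 4108 in the nucleus and 2152 in the cytoplasm. Its nuclear level was 1.91-fold the cytoplasmic level, with a log2 fold change of -0.93 ± 0.12 (SE, adjusted p = 2.60e-14), and its gene spans 133 kb at chr2:239892450-240025743 (hg38, minus strand). Single-library counts were not recovered for NDUFA10. NDUFA10 and NDUFS4 had the longest spans of all tested members.

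NDUFV3 and NDUFA12 were the lowest of the complex I members called higher in the cytoplasm. NDUFV3, a small subunit of the NADH-oxidizing module, had 1544 and 1535 normalized counts in the nuclear libraries and 2092 and 1858 in the cytoplasmic libraries and a log2 fold change of 0.36 ± 0.12 (SE, adjusted p = 0.00754). Its call was the weakest of all members and was lost with limma, with Bonferroni adjustment and with fold changes centred on the protein-coding median, where the value was 0.25. NDUFA12 had 711 and 732 normalized counts in the nuclear libraries and 1063 and 989.9 in the cytoplasmic libraries and a log2 fold change of 0.51 ± 0.14 (SE, adjusted p = 6.77e-04). Its libraries did not overlap between the fractions either, but its gap was a small part of the one in NDUFB11, and its call was lost with Bonferroni adjustment, as was that of SDHC.

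Complex II, or succinate dehydrogenase, links the citric acid cycle to the chain and has no mitochondrially encoded subunit. All 4 of its genes were higher in the cytoplasm, over a span of 1.93 on the log2 scale. SDHB, the iron-sulfur subunit, had 716 and 727 normalized counts in the nuclear libraries and 3555 and 4041 in the cytoplasmic libraries and a log2 fold change of 2.40 ± 0.12 (SE, adjusted p = 1.45e-81). SDHD, a membrane anchor, had 397 and 490.2 normalized counts in the nuclear libraries and 1589.9 and 1794 in the cytoplasmic libraries and a log2 fold change of 1.93 ± 0.15 (SE, adjusted p = 4.53e-36). Both were clearly apart between the fractions.

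SDHA, the flavoprotein that oxidizes succinate, had mean normalized counts of 3326 in the nucleus and 6706 in the cytoplasm and a log2 fold change of 1.01 ± 0.11 (SE, adjusted p = 2.92e-19). Genes similar in sequence to SDHA are annotated elsewhere in the genome, so reads shared with them could be split or lost. SDHC, the other membrane anchor, had 1763 and 1773 normalized counts in the nuclear libraries and 2385 and 2507 in the cytoplasmic libraries and a log2 fold change of 0.47 ± 0.12 (SE, adjusted p = 1.36e-04), the lowest of the complex. SDHC and SDHD form the anchor together, but their log2 fold changes differed by far more than their errors. SDHC lies at chr1:161314381-161363206 (hg38), over 48.8 kb.

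Complex III passes electrons from ubiquinol to cytochrome c, and all 10 of its members were higher in the cytoplasm. CYC1 (cytochrome c1) and UQCRFS1 (the Rieske iron-sulfur protein) are its nuclear-encoded catalytic subunits. UQCRFS1 had 277 and 294 normalized counts in the nuclear libraries and 2202 and 2540.4 in the cytoplasmic libraries and a log2 fold change of 3.05 ± 0.14 (SE, adjusted p = 1.61e-100). CYC1 had 493 and 603 normalized counts in the nuclear libraries and 3409 and 3985 in the cytoplasmic libraries and a log2 fold change of 2.76 ± 0.14 (SE, adjusted p = 7.06e-84). The highest member was UQCR10, a small subunit, with 220.0 and 267 normalized counts in the nuclear libraries and 2629 and 2835 in the cytoplasmic libraries and a log2 fold change of 3.49 ± 0.14 (SE, adjusted p = 6.98e-129).

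UQCRC1 and UQCRC2, the large core proteins on the matrix side, pair with each other in the complex but had unequal values. UQCRC1 had 1326 and 1371 normalized counts in the nuclear libraries and 6322 and 7619.9 in the cytoplasmic libraries and a log2 fold change of 2.37 ± 0.12 (SE, adjusted p = 1.19e-80). UQCRC2 had 1523 and 1608 normalized counts in the nuclear libraries and 3561 and 3901 in the cytoplasmic libraries and a log2 fold change of 1.25 ± 0.12 (SE, adjusted p = 6.07e-26), the lowest of complex III and the only one of its members under 2.28. UQCRH, the hinge protein, was at 2.75 ± 0.11 and its intronless near-copy UQCRHL at 3.11 ± 0.24. The difference of UQCRH minus UQCRHL was -0.36, with a 95% interval from -0.88 to 0.16, and reads of such copies cannot be assigned with certainty.

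Complex IV, cytochrome c oxidase, reduces oxygen, and its catalytic subunits are mitochondrially encoded. Of its 14 members 11 were tested, and 10 were higher in the cytoplasm. COX7C had 539 and 678 normalized counts in the nuclear libraries and 7044 and 7033 in the cytoplasmic libraries and a log2 fold change of 3.53 ± 0.13 (SE, adjusted p = 1.46e-163), the highest of the complex. COX8A, a small subunit, had 355 and 494 normalized counts in the nuclear libraries and 4639.7 and 4787 in the cytoplasmic libraries and a log2 fold change of 3.48 ± 0.15 (SE, adjusted p = 4.51e-121). COX6B1, on the intermembrane side of the enzyme, was at 2.95 ± 0.13, and COX5A, on its matrix side, at 2.35 ± 0.13.

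COX6A1 was lower than most of its complex, at 1.81 ± 0.14, although its gene is among the shortest, at 2.65 kb. COX7A2L, which is known for joining complexes III and IV into supercomplexes, had 1301 and 1233 normalized counts in the nuclear libraries and 2659 and 2694 in the cytoplasmic libraries and a log2 fold change of 1.08 ± 0.12 (SE, adjusted p = 3.49e-19). Its relative COX7A2 was at 2.39 ± 0.14, so that COX7A2 minus COX7A2L was 1.31, with a 95% interval from 0.96 to 1.66. COX7A2L was the lowest called member of complex IV.

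The isoforms of muscle, testis and other restricted tissues were barely seen in these cells, as far as they are members. COX6A2 and COX7A1, the heart and muscle forms, are listed at 0 while their widespread forms COX6A1 and COX7A2 had means of 2531 and 1746 normalized counts. COX7B2 had 3 and 0 counts in the nuclear and 2 and 0 in the cytoplasmic libraries. COX6B2, the testis form, had 8.95 and 5.05 normalized counts in the nuclear libraries and 2.35 and 9.28 in the cytoplasmic libraries, and its log2 fold change was -0.29 ± 1.24 (SE, adjusted p = 0.86). NDUFA4L2, known as a hypoxia-induced relative of NDUFA4, had 31.3 and 30.3 normalized counts in the nuclear libraries and 48.1 and 41.1 in the cytoplasmic libraries and a log2 fold change of 0.53 ± 0.50 (SE, adjusted p = 0.364). NDUFA4 itself, which is now often assigned to complex IV, was at 2.99 ± 0.14, and NDUFA4 minus NDUFA4L2 was 2.45, with a 95% interval from 1.44 to 3.47.

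In complex V all 18 members were higher in the cytoplasm. The F1 head makes ATP, with alternating alpha (ATP5F1A) and beta (ATP5F1B) subunits around the central stalk of gamma (ATP5F1C), delta (ATP5F1D) and epsilon (ATP5F1E). The median log2 fold change of the 5 was 2.85. Single-library counts were not recovered for ATP5F1A, ATP5F1B and ATP5F1E. ATP5F1B had mean normalized counts of 4127 in the nucleus and 27459 in the cytoplasm and a log2 fold change of 2.73 ± 0.12 (SE, adjusted p = 4.58e-117). ATP5F1A had mean normalized counts of 2088 in the nucleus and 15069 in the cytoplasm and a log2 fold change of 2.85 ± 0.12 (SE, adjusted p = 4.74e-116). The values of the alpha and beta genes differed by less than the standard error of either.

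The stalk genes did not share this closeness. ATP5F1E had mean normalized counts of 322 in the nucleus and 3918 in the cytoplasm and a log2 fold change of 3.60 ± 0.13 (SE, adjusted p = 1.60e-165), next below NDUFB11 among all members. ATP5F1D had 236 and 240.5 normalized counts in the nuclear libraries and 2031 and 2244 in the cytoplasmic libraries and a log2 fold change of 3.16 ± 0.14 (SE, adjusted p = 8.97e-108). ATP5F1C had 1108 and 1144 normalized counts in the nuclear libraries and 4441 and 4291 in the cytoplasmic libraries and a log2 fold change of 1.96 ± 0.11 (SE, adjusted p = 1.54e-65), the lowest of complex V. Highest and lowest of the whole complex were therefore both stalk subunits.

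ATP5MC1, ATP5MC2 and ATP5MC3 encode the same mature protein, subunit c of the membrane ring, with different import sequences. ATP5MC1 had 319 and 338 normalized counts in the nuclear libraries and 2139 and 2502 in the cytoplasmic libraries and a log2 fold change of 2.82 ± 0.14 (SE, adjusted p = 6.55e-86). ATP5MC3 had 547 and 663 normalized counts in the nuclear libraries and 4404 and 5059.6 in the cytoplasmic libraries and a log2 fold change of 2.97 ± 0.14 (SE, adjusted p = 3.00e-105). ATP5MC2 had 1576 and 1890.3 normalized counts in the nuclear libraries and 8448 and 8468 in the cytoplasmic libraries and a log2 fold change of 2.29 ± 0.12 (SE, adjusted p = 1.73e-80). ATP5MC2 was lower than both others, by 0.53 against ATP5MC1 (95% interval from 0.17 to 0.90) and by 0.68 against ATP5MC3 (0.33 to 1.03). ATP5MC1 and ATP5MC3 differed by -0.15, with an interval from -0.53 to 0.24. Intervals of such pairs were not adjusted for their number.

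The 9 genes of the stator and the rest of the membrane part kept within 1.10 of each other, from ATP5PF at 2.27 ± 0.14 to ATP5ME at 3.37 ± 0.14, with a median of 2.71. The stator genes ATP5PO, ATP5PD and ATP5PB were at 2.72 ± 0.13, 2.72 ± 0.17 and 2.38 ± 0.12. ATP5IF1, the inhibitor that binds F1 when the membrane is de-energized, had 257 and 323 normalized counts in the nuclear libraries and 2649 and 2408 in the cytoplasmic libraries and a log2 fold change of 3.13 ± 0.15 (SE, adjusted p = 5.52e-98).

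Members were mostly short genes, and the long ones among them were less cytoplasmic. By GENCODE 44 on hg38, tested members spanned a median of 12.4 kb, with a mature transcript of 0.80 kb and 3 introns, against 34.9 kb, 3.31 kb and 8 introns for the tested protein-coding genes. Across the 81 tested members, Spearman's rho between span and log2 fold change was -0.64. It was -0.62 over the 38 members of complex I and -0.68 over the 43 others. Over 15329 protein-coding genes it was -0.60. Transcript length followed the fold change less closely in the members, with a rho of -0.26, and the mean count hardly at all, with 0.12. These are correlations across genes of the same libraries, given as descriptions, and intronic reads are part of the counts behind them.

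The median span differed between the complexes. It was 7.94 kb in complex IV, 8.07 kb in complex III, 11.6 kb in complex V, 13.0 kb in complex I and 37.1 kb in complex II. Within each class of span, the median of the members lay above that of all protein-coding genes, members included. The classes were not matched by transcript length or number of introns. Transcript length had a rho of -0.41 with the fold change over protein-coding genes with a mean of at least 50. Counting genes with a mean of at least 50, the 14 members under 5 kb had a median log2 fold change of 3.17, against 2.42 for the 823 protein-coding genes of that span. The medians were 2.66 and 1.68 for 19 members from 5 to 10 kb, 2.30 and 1.12 for 23 members from 10 to 20 kb, and 1.97 and 0.52 for 14 members from 20 to 40 kb. From 40 kb upward 9 members had a median of 0.91 and 5861 protein-coding genes one of -0.66. This class has no upper limit, and its longest member spans 133 kb. Over protein-coding genes the median fell from 0.11 near 48.6 kb to -0.84 near 137 kb and -2.25 near 386 kb, so the genes compared were not alike in span. Members above the protein-coding median of their class numbered 13, 18, 23, 13 and 7 in these classes.

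NDUFS4 and NDUFA10 were the members of the last class below that median. In contrast, ATP5MC2 with 44.7 kb, COX7A2L with 91.5 kb and NDUFA12 with 108 kb were long genes with positive values. ATP5MC2 and COX7A2L hold just 10.3 and 9.60 kb of introns in their main transcripts, and NDUFA12 holds 31.8 kb. The value of NDUFA12 turned to -0.15 with equal library totals. COX6A1 was the member under 5 kb that lay below the protein-coding median of its class.

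**Figure D3:**
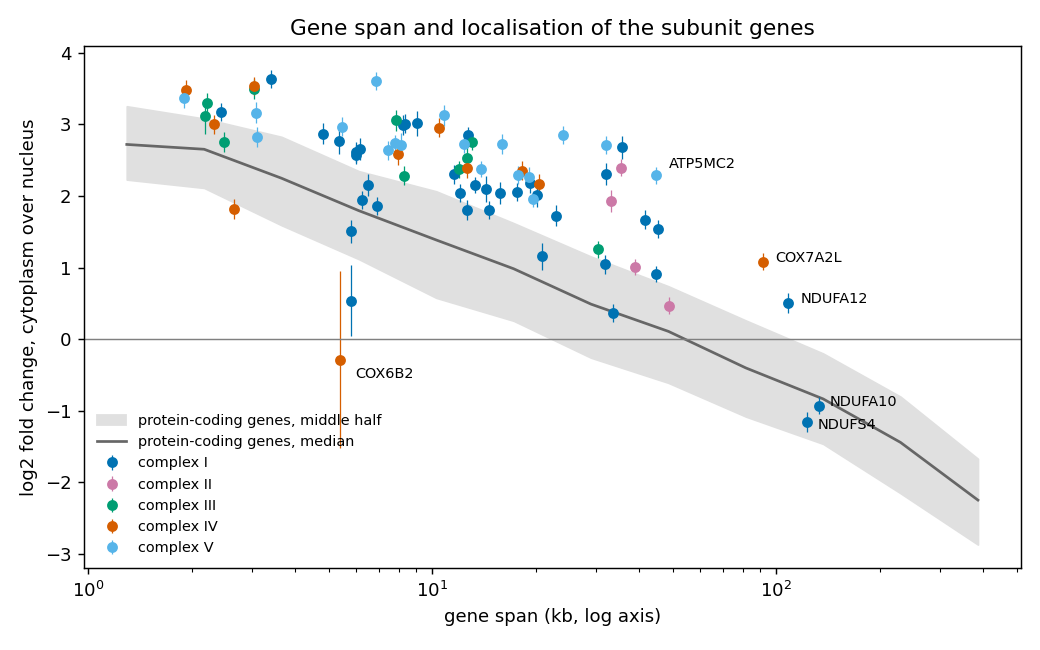
Log2 fold change of cytoplasm over nucleus (vertical axis) against gene span (horizontal log axis, kb) for the 81 tested members, with bars of 1 standard error, over the median (line) and the range from the 25th to the 75th percentile (grey) of protein-coding genes with a mean of at least 50. Most members lie above the line; NDUFS4 and NDUFA10 lie below it at 122.7 and 133.3 kb.

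The other genes of the pathway did not all share this distribution. Of the subunits and carriers that the symbols leave out, NDUFAB1 (the acyl carrier protein in complex I), COX4I1 and CYCS (cytochrome c) were all higher in the cytoplasm, at 2.10 ± 0.14, 2.88 ± 0.13 and 2.11 ± 0.13, and COX4I2 is listed at 0. Assembly factors, proteins that build the complexes without staying in them, went both ways. Of 49 tested assembly factors 33 were higher in the cytoplasm, 11 in the nucleus and 5 were not called, with a median log2 fold change of 1.18. For the subunits those numbers were 77, 2 and 2 of 81. The nuclear calls were 22.4% of the factors, against 26.5% of all genes and 28.4% of the protein-coding genes tested, and the cytoplasmic calls were 67.3%, against 25.9% and 35.6%.

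Among factors of complex I the calls were 7 of 14 higher in the cytoplasm and 6 higher in the nucleus. NDUFAF3 reached 2.64 ± 0.16, while NDUFAF2, NUBPL and NDUFAF6 were at -2.73 ± 0.40, -2.56 ± 0.12 and -2.34 ± 0.14. NUBPL, which delivers iron-sulfur clusters to complex I, had 4231 and 4051 normalized counts in the nuclear libraries and 687 and 722 in the cytoplasmic libraries. These 3 genes span 209 to 371 kb, longer than any tested subunit gene. In complex IV 18 of 22 tested factors were higher in the cytoplasm, from COX20 at 0.82 ± 0.21 to COA3 at 3.26 ± 0.15, and COX10, CMC2 and CMC1 were higher in the nucleus, at -0.65 ± 0.14, -0.74 ± 0.16 and -2.09 ± 0.14. For complexes II and III the cytoplasmic calls were 2 of 4 and 4 of 6, and for ATP synthase 2 of 3.

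The subunits encoded in the mitochondrial genome partner with the members but are transcribed inside mitochondria. Of the 13 genes, 7 were called cytoplasmic and 3 nuclear, with a median log2 fold change of 0.49. The oxidase genes MT-CO1, MT-CO2 and MT-CO3 were at 1.66 ± 0.14, 2.56 ± 0.30 and 2.66 ± 0.33, beside a median of 2.39 for the nuclear-encoded subunits of complex IV. Genes of complex I went from 3.42 ± 0.42 in MT-ND3 to -1.85 ± 0.26 in MT-ND6, and those higher in the nuclear fraction were MT-ND4, MT-ND5 and MT-ND6. The standard error reached 0.42 in MT-ND3. With equal library totals MT-ND4L, MT-CYB, MT-ND1 and MT-ATP8 changed sign, and so did the median, to -0.18.

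**Figure D4:**
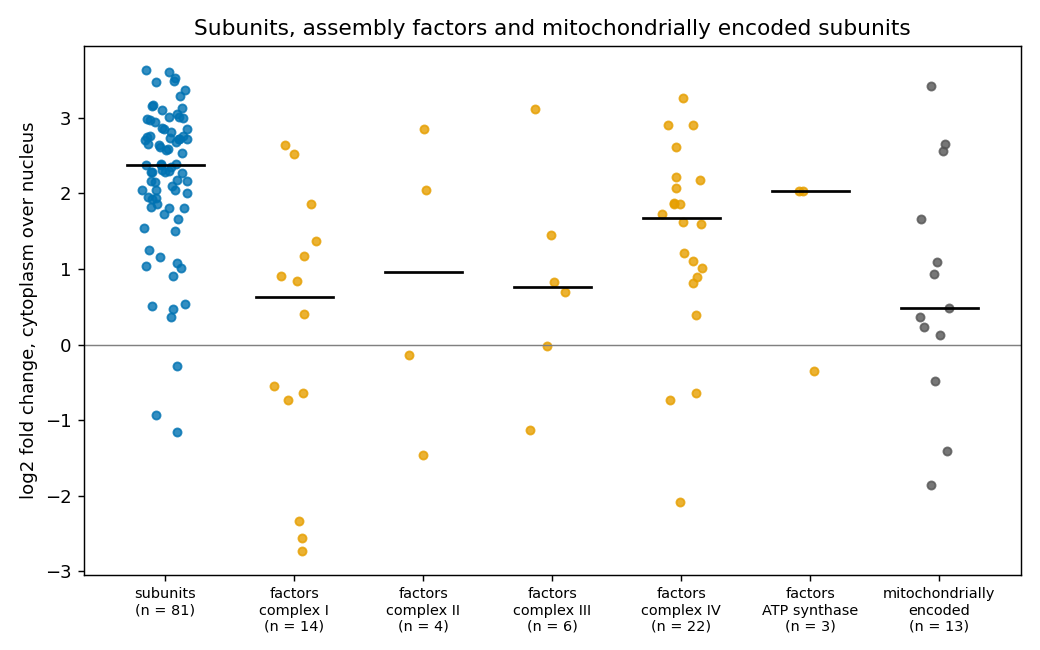
Log2 fold change of cytoplasm over nucleus (vertical axis) for the tested subunit genes, the assembly factors of each complex and the mitochondrially encoded subunits, with a point per gene and a black line at each median. The subunits gather above 0 around 2.37, and the complex I factors reach from -2.73 to 2.64; with equal library totals every point lies 0.66 lower.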

How the data were processed

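RNA of nuclear and cytoplasmic fractions of HEK293T cells was sequenced, with 2 biological replicates of each. According to the study's methods, the authors aligned the reads to hg38 with STAR and counted exonic and intronic reads together with featureCounts 2.0.2, on a GENCODE-based annotation from which stretches shared by several genes were removed, so that a gene kept its other parts. The deposited table holds, per gene, the mean normalized count over the 4 libraries (a signal, counts divided by size factors), the log2 fold change of cytoplasm over nucleus, its standard error on the log2 scale, a Wald statistic (a score), a p-value and a p-value adjusted by Benjamini-Hochberg, as the authors' DESeq2 comparison gave them. These deposited p-values and folds are used here as the measurements, and a gene was called at an adjusted p of at most 0.01.

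Counts of single libraries were recovered by searching the whole counts that give the deposited mean, fold change and standard error, for 31289 of 32478 genes (96.3%). Where several solutions gave the mean, the best had to lie within 5e-06 of the deposited log2 fold change, and the next had to lie more than 10 times farther away than the best or than 2e-07, whichever was larger. The size factors found were 1.34 and 1.19 for the nuclear and 0.853 and 0.755 for the cytoplasmic libraries, and recovered totals ranged from 9979438 to 16353657. Genes without recovered counts, among them some of the most abundant, are not in these totals. The table does not say which recovered library is which replicate. limma 3.58.1 on log2(normalized count + 0.5) of the recovered libraries was the second test. Fractions were also compared by whether their libraries overlapped and, for sums, by the exact permutation test. Recovery and tests were checked on simulated data.

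Gene spans, transcripts and introns came from GENCODE 44 on hg38, and promoters from RefSeq on GRCh38.p14. The members and gene lists were chosen with earlier results of these data known. Named genes were the highest and lowest members of each complex, all SDH genes, the catalytic cores, the F1 and c-ring genes, isoform pairs and every member not called cytoplasmic, and others named were chosen after their values were seen. Alternatives were another threshold and adjustment, equal library totals, centring on protein-coding genes, limma, leaving out each library and a weighted mean.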

Additional observations from a re-analysis of the deposited data

How the results depend on the processing

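The 77 cytoplasmic and 2 nuclear calls among members became 77 and 2 at an adjusted p of at most 0.05. With Bonferroni adjustment they became 74 and 2, and with a minimum log2 fold change of 0.5 and mean of 50, 75 and 2. They became 76 and 2 after centring and 72 and 2 with equal library totals. Over all 23333 genes tested, the 6046 cytoplasmic and 6175 nuclear calls became 6702 and 7151 at an adjusted p of at most 0.05. They became 4429 and 4039 with Bonferroni adjustment and 5362 and 4900 with the minimum fold change and mean. After centring they became 5647 and 6615, and with equal library totals 3777 and 8930. With equal totals the value turned to -0.13 in NDUFA4L2, -0.15 in NDUFA12, -0.19 in SDHC and -0.30 in NDUFV3, NDUFA5 and NDUFS1 lost their calls at 0.49 and 0.25, and the medians of complexes I to V moved to 1.38, 0.81, 2.09, 1.73 and 2.06. With means weighted by inverse variance complexes I to V had 1.90, 1.35, 2.59, 2.49 and 2.70, so that complex V was above complex III. By limma, 71 of 75 members with recovered counts were higher in the cytoplasm and 1 in the nucleus, as NDUFA10 has no recovered counts. Leaving out 1 library at a time gave 0 to 70 cytoplasmic and 0 to 1 nuclear calls. Without either nuclear library limma called 0 members and 0 of all 22144 genes, with 71 cytoplasmic and 1 nuclear member at an unadjusted p under 0.05, and the lone sample is assumed to vary like the others. COX6B2 ranged from -1.35 to 0.43 in these fits, and was above 0 without the deeper cytoplasmic library. The causes were not tested. No paired analysis was possible because the recovered libraries carry no replicate number. Precision is limited by 2 libraries per fraction and, for COX6B2 and COX7B2, by counts near 0.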

Other observations

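The same symbols also match genes that do not code for protein. Of 128 pseudogenes named after members 92 are listed at 0 and 6 were tested, of which UQCRFS1P1 was higher in the cytoplasm, with a mean of 23.0 normalized counts, a log2 fold change of 3.10 and an adjusted p of 5.96e-05 in the deposited table. The means of all 128 summed to 0.0382% of the members' sum. Reads of the parent genes could reach such copies, and their part in these values was not tested.

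NDUFA6-DT, a long non-coding RNA that starts next to NDUFA6, had 517 and 441 normalized counts in the nuclear and 131 and 96.7 in the cytoplasmic libraries. Its log2 fold change was -2.07 ± 0.23 (SE, adjusted p = 1.02e-18), against 2.76 for NDUFA6 itself. UQCRFS1-DT, NDUFV2-AS1 and NDUFB2-AS1 were not called, at log2 fold changes of 2.40, -0.73 and 0.15 and adjusted p-values of 0.0517, 0.321 and 0.931.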
